A study of Mus musculus with 14 samples.

Results

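The 8 genes described here encode the Janus kinases (Jak1, Jak2, Jak3 and Tyk2) and 4 feedback inhibitors of cytokine signaling (Socs1, Socs2, Socs3 and Cish). They were taken by name, out of 21441 protein-coding gene starts with a position in GRCm38.p6, and followed in 7 lists of H3K4me3 peaks from LSK cells. LSK cells are the lineage-negative, Sca-1-positive, c-Kit-positive fraction of mouse BM that holds the hematopoietic stem and progenitor cells. In CUT&Tag, the assay the paper names, an antibody (here ab8580 against H3K4me3) guides a transposase to chromatin. The fragments it cuts out are sequenced. The lists came from male C57BL/6J mice kept for months, from soon after weaning, on a high-fat diet (HFD-LSK, 3 libraries) or on a low-fat control diet (LFD-LSK, 4 libraries). No transgene or drug was part of these groups, BM cells were sorted after magnetic enrichment, and the 7 IgG libraries were not analysed here. The labels do not say whether each library came from a separate mouse, so p-values measure the spread between these libraries, which may be technical, and no sequencing date or cohort was available to separate batches.

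Janus kinases sit on the cytoplasmic tails of cytokine receptors and, once a ligand brings receptor chains together, phosphorylate the receptor, each other and the STAT transcription factors. STAT dimers then enter the nucleus and switch on target genes, among them those of the SOCS family and CIS. These proteins bind phosphorylated receptors or kinases through an SH2 domain, block signaling, and recruit an Elongin and Cullin 5 ubiquitin ligase through the SOCS box, which closes a negative feedback loop. In hematopoiesis, Jak2 serves the erythropoietin and thrombopoietin receptors, Jak3 serves the common gamma chain of lymphoid cytokine receptors, and Jak1 and Tyk2 serve interferon and gp130-type receptors. H3K4me3 marks the starts of active or poised genes, and its breadth around a start differs between genes.

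A gene was counted as called in a list when a peak overlapped the 1 kb on either side of its start. Domain width is the width of the widest such peak in bp. Fold rank is the place of the gene's strongest peak when its list is ordered by fold enrichment, from the top, given as a percent of the list's length. The lists held between 6921 (LFD-LSK replicate 4) and 13094 peaks (HFD-LSK replicate 2), with median widths of 525 bp and 1198 bp in those same libraries. Summit fragments, the number of fragments piled up at a peak's highest point, were recovered from fold and p, and the fewest that made a peak ranged from 4 (HFD-LSK replicate 3) to 21 (LFD-LSK replicate 1). Background here is the level that the fold sets the summit against, recovered in the same way. HFD-LSK replicate 3 stood apart, with a median of 1.1 fragments per peak against 0.0891 to 0.284 in the other lists. Whether that background came from the H3K4me3 library itself or from its IgG control is not given in the sources used here. Of 10 LSK marker genes, 5 were called in all 7 lists and 4 in some, and Ly6a, which encodes Sca-1, in none. Of 10 markers of the mature lineages that the sort removes, 9 were called in no list. Over all coding starts, 21.2% were called in all 7 lists and 52.9% in at least 1.

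The bases before 4 of the gene starts are printed because they show how the promoters of the inhibitors and of a kinase differ in composition and in the letters that STAT factors and interferon-responsive factors are known to bind. Each sequence is the 250 bases upstream of the RefSeq start, read 5′ to 3′ on the gene's strand. Capitals mark matches to the GAS motif TTCNNNGAA, bound by STAT dimers, or to the core of the interferon-stimulated response element, GAAANNGAAA. Both strands were searched, and the other bases are in lower case. Jak2 lies on the plus strand (chr19:29251553-29251802), Socs1 on the minus strand (chr16:10785537-10785786), Socs3 on the minus strand (chr11:117969367-117969616) and Cish on the plus strand (chr9:107296409-107296658), all in GRCm38.p6.
Jak2: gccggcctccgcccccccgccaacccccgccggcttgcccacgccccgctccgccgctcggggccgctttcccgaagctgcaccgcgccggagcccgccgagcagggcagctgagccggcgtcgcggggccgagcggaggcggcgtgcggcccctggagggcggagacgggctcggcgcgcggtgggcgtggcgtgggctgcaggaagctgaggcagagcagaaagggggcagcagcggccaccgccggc
Socs1: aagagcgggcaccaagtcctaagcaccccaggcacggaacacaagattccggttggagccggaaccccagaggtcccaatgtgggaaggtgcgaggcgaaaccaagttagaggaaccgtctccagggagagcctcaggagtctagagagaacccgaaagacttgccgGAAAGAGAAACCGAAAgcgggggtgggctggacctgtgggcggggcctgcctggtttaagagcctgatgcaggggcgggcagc
Socs3: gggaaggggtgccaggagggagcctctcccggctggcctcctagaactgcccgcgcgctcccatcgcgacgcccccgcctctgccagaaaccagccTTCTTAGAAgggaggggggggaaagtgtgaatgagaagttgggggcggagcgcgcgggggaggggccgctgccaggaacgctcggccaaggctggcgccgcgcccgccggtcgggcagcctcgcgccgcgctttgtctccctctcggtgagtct
Cish: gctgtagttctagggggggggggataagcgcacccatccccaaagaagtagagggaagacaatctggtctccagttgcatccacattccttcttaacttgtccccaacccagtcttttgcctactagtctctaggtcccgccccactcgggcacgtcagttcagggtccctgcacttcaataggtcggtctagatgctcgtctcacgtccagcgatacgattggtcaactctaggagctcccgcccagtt

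Over the 250 bases before and 50 bases from the start, a GAS motif occurred in 7.83% and the interferon core in 3.40% of 17492 coding promoters. Socs1 held the interferon core at 2 overlapping places, with first bases at -83 and -77 from the start, as gaaagagaaa and gaaaccgaaa. Socs3 held 1 GAS match, ttcttagaa, with its first base at -154. Cish held 2 GAS matches, ttcctggaa and ttcttggaa, beginning at bases 1 and 12 of the transcript and so just past the printed stretch. The 4 kinase promoters held neither motif in this window, and Socs2 had no promoter sequence in the reference used, which leaves 7 of 8 genes searched. A match is a stretch of letters and not a measured binding site.

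CpG content differed among these promoters too. The observed over expected CpG ratio upstream of the start was 0.851 for Jak1, 0.908 for Jak2 and 0.988 for Tyk2, above the ratio of 80.1%, 85.4% and 91.6% of coding promoters. Jak3 stood lower at 0.472, and among the inhibitors Socs3 reached 0.817 while Socs1 (0.576) and Cish (0.532) lay near the median over all coding promoters, which was 0.536. Jak2 had the most CpG dinucleotides, 37 in 250 bases, and Jak3 the fewest, 8.

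Most lists held a peak at each of the 8 starts. Kinases were called in 25 of 28 gene-by-list combinations and inhibitors in 26 of 28. Jak2, Socs1, Socs2 and Socs3 were called in 7 of 7 lists, whereas 21.2% of all coding starts were called in all 7 and 52.9% in at least 1. Jak1, Jak3 and Tyk2 were missing only from LFD-LSK replicate 4, and Cish from LFD-LSK replicates 2 and 4. All 12 possible calls of each class were made in HFD-LSK, against 13 of 16 for the kinases and 14 of 16 for the inhibitors in LFD-LSK. Over all 21441 coding starts, the HFD-LSK lists also held more calls on average, 8683 to 10899 against 6400 to 9489, though these ranges overlapped. No gene differed between diets in its calls by Fisher's exact test, two-sided (p = 0.429 for Cish, p = 1.00 for the other 7), while 0.282% of 11347 starts were called in all HFD-LSK lists and no LFD-LSK list, and 0% the other way. LFD-LSK replicate 4 holds the shortest list, and without it 7 of the 8 genes were called in every list, beside 28.4% of all starts. A missing call is a peak below that library's detection limit, not a measured absence of the mark. Among the strongest 6921 peaks of each list, or among peaks with a −log10 q of at least 5, only Jak2 of the 8 was called in all 7 lists, beside 9.48% and 12.4% of all starts.

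**Figure D1:**
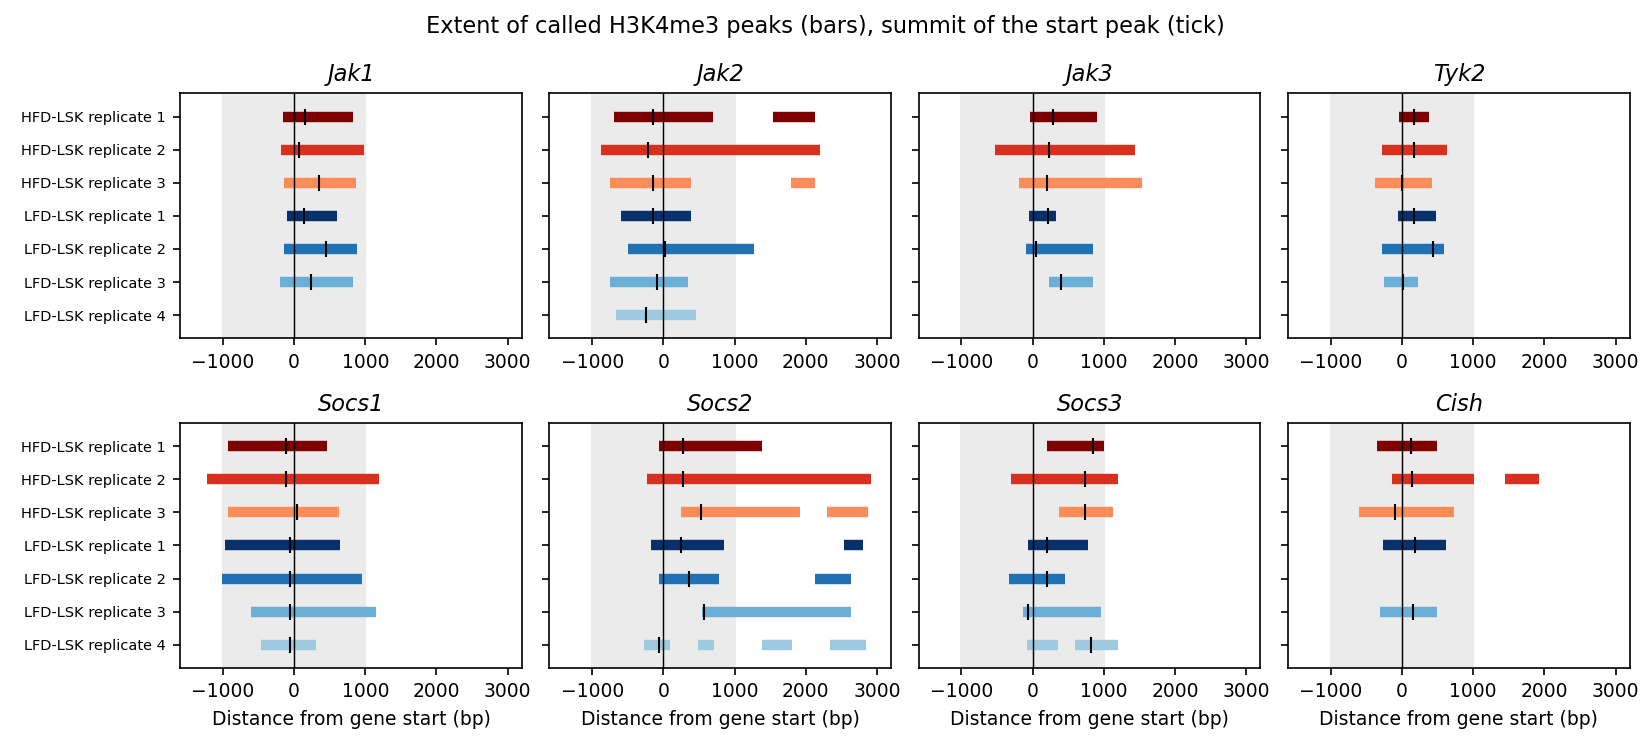
Called H3K4me3 peaks around the start of each of the 8 genes. The x axis gives the distance from the gene start in bp, positive into the gene, and each row is 1 library (HFD-LSK in reds, LFD-LSK in blues). Bars span the peaks, ticks mark the summit of the strongest peak at the start, and grey shows the 1 kb window. Jak1 keeps nearly the same short span in its 6 lists, Socs1 reaches far upstream, and Socs2 carries further pieces up to 2871 bp into the gene. A separate peak that lies upstream of -4527 in the Jak3 panel is outside the axis, and its gene was not determined.

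Jak1 (chromosome 4, gene body 101151974 to 101265282, minus strand) encodes the kinase shared by interferon, gp130 and common gamma chain receptors, and its domain, like that of Cish, varied little in width. In replicate order, its widths were 989, 1168 and 1005 bp in the HFD-LSK lists and 704, 1032 and 1031 bp in LFD-LSK. The widest was 1.66 times the narrowest, against 1.65 times for Cish and 2.20 to 8.59 times for the other 6 genes. These ranges cover different lists. Jak1 and Cish were not called in LFD-LSK replicate 4, whose median width was lowest and which held the narrowest Socs1, Socs2 and Socs3 domains. Without it, Socs1 ran from 1386 to 2412 bp and Socs3 from 766 to 1515 bp. Jak3 (5.27 times) and Tyk2 (2.20 times) were not called there either. Every peak began between -197 and -106 bp of the start and ended 597 to 989 bp downstream, so 80.8% to 86.2% of its width lay inside the gene. Its fold rank was 27.1%, 15.4% and 7.22% in HFD-LSK and 18.1%, 28.5% and 21.8% in LFD-LSK, always in the upper part of the list.

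Jak2 (chromosome 19, 29251803 to 29313095, plus strand), the kinase of the erythropoietin and thrombopoietin receptors, was the only kinase called in all 7 lists. Widths were 1391, 3077 and 1135 bp in HFD-LSK and 989, 1763, 1092 and 1121 bp in LFD-LSK. The domain straddled the start, with its upstream end between -870 and -493 bp and its summit between -248 and 29 bp. The 3077 bp peak of HFD-LSK replicate 2 ran on to 2206 bp inside the gene, where HFD-LSK replicates 1 and 3 each had a separate peak, from 1535 to 2131 bp and from 1797 to 2131 bp. No LFD-LSK list had a separate peak there, though the start peak of LFD-LSK replicate 2 reached 1269 bp. The separate peaks had 27 and 15 summit fragments in HFD-LSK replicates 1 and 3. How often such further peaks occurred at other starts was not counted, and this difference was not tested. Fold ranks were scattered, at 61.7%, 18.4% and 48.5% in HFD-LSK and 11.7%, 44.4%, 16.7% and 6.36% in LFD-LSK.

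Summit fragments placed Jak2 more evenly. It had 69, 83 and 26 fragments in HFD-LSK and 73, 58, 28 and 33 in LFD-LSK, and only 7.14% to 15.3% of a list's peaks had more. Where its fold rank was lowest, in HFD-LSK replicate 1, its background was 5.03 fragments, a level exceeded by 0.991% of that list's peaks. In LFD-LSK replicate 2, where the rank was 44.4%, the background was 3.20 fragments and 4.04% of peaks had more. The fold sets the summit against this background. Jak2 ranked lower by fold than by fragments (ties at their mean rank) in 5 of 7 lists. Jak1 and Tyk2 did so in 0 of 6.

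Jak3 (chromosome 8, 71676383 to 71690577, plus strand) encodes the kinase that pairs with the common gamma chain and is best known in lymphoid cells. Its widths were 934, 1966 and 1730 bp in HFD-LSK and 373, 943 and 624 bp in LFD-LSK replicates 1 to 3, a 5.27-fold range. The largest LFD-LSK width exceeded the smallest HFD-LSK width by 9 bp, so the diets overlapped at 1 library each. With 1 library uncalled it did not enter the test of diet. The peak ran mostly downstream, and in LFD-LSK replicate 3 it began 227 bp inside the gene. A separate peak upstream, between -6020 and -4527 bp, was called in 6 of 7 lists, all but LFD-LSK replicate 1. LFD-LSK replicate 4, where the Jak3 start itself was not called, was among them. Other coding starts were searched only within 1 kb of the Jak3 start. Whether this distant peak belongs to a neighbouring gene was not checked.

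Tyk2 (chromosome 9, 21104068 to 21131393, minus strand), which serves the type I interferon and interleukin-12 receptors, had the narrowest domain on average, 672 ± 222 bp (SD, n = 6). Its widths were 419, 921 and 804 bp in HFD-LSK and 535, 882 and 474 bp in LFD-LSK. Fold rank was 69.8%, 37.3% and 22.0% in HFD-LSK and 65.0%, 70.8% and 70.6% in LFD-LSK, so 4 of the 6 lists placed it in the lower part. Its highest summit was 45 fragments and its lowest 12.

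**Figure D2:**
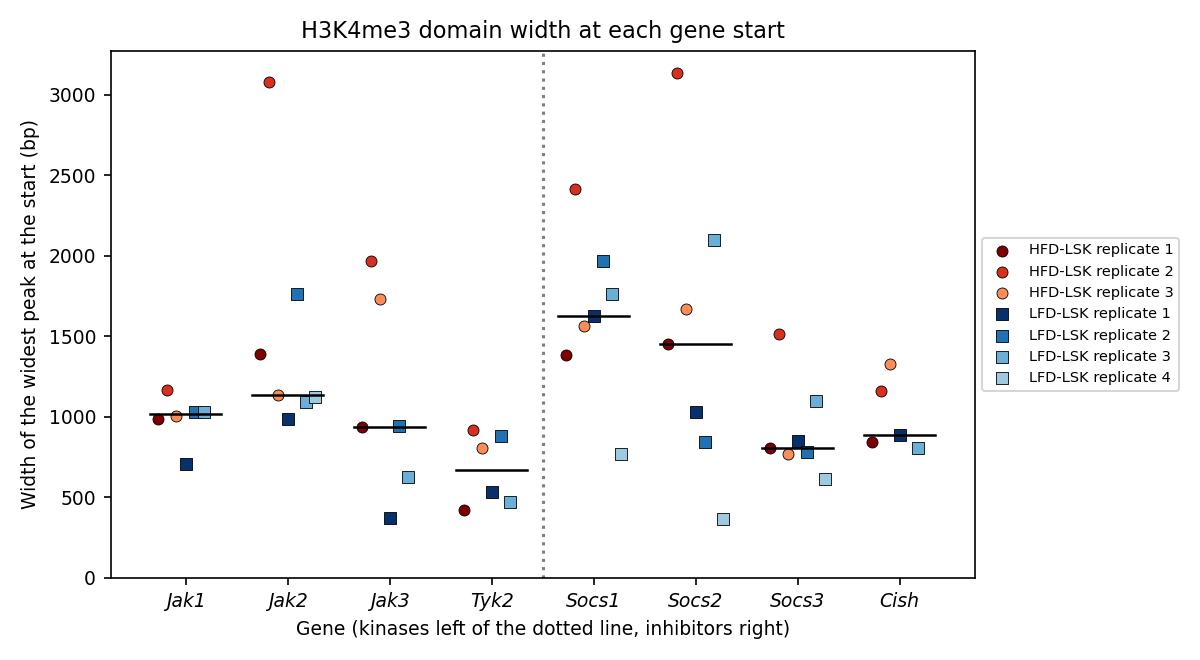
Width of the widest H3K4me3 peak at each start, in bp, per library. Circles are HFD-LSK, squares LFD-LSK, and the horizontal line is the median over the lists with a call. Jak1 and Cish are tight over the 6 and 5 lists that called them, while Jak2, Jak3, Socs1 and Socs2 spread widely. HFD-LSK replicate 2 is the highest point for 7 genes and HFD-LSK replicate 3 the highest for Cish.

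Socs1 (chromosome 16, 10783808 to 10785536, minus strand), whose protein blocks the kinase domain of Janus kinases directly, had the widest domain on average, 1640 ± 507 bp (SD, n = 7). Its widths were 1386, 2412 and 1561 bp in HFD-LSK and 1624, 1966, 1762 and 771 bp in LFD-LSK, and the 2 diets overlapped. Its upstream end lay between -1216 and -459 bp, farther out than that of the other genes in all lists but LFD-LSK replicates 3 and 4, where Jak2 reached farther. The summit stayed within -112 to 40 bp of the start, a range that holds the overlapping interferon core matches printed above. The gene is 1729 bp long, and the peak covered 18.0% of it in LFD-LSK replicate 4 and 69.2% in HFD-LSK replicate 2.

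Fold rank spread for Socs1 over nearly the whole list. It was 36.2%, 5.69% and 99.3% in HFD-LSK and 17.0%, 77.4%, 12.8% and 40.5% in LFD-LSK. By summit fragments the same peaks were far closer together, with 57, 77 and 22 fragments in HFD-LSK and 65, 37, 28 and 22 in LFD-LSK. Between 10.4% and 40.6% of a list's peaks had more. In HFD-LSK replicate 3, the list in which its fold ranked at 99.3%, the background was 5.48 fragments and only 0.685% of peaks had a higher one.

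Socs2 (chromosome 10, 95383903 to 95417321, minus strand) encodes the inhibitor known for damping growth hormone signaling. Its domain varied most of all, with widths of 1453, 3135 and 1672 bp in HFD-LSK and 1028, 842, 2100 and 365 bp in LFD-LSK. In 4 lists the peak began between -223 and -65 bp and lay mostly inside the gene, and in HFD-LSK replicate 3 and LFD-LSK replicate 3 it began 245 and 542 bp past the start. In LFD-LSK replicate 4 it ran from -269 to 95 bp, with 26.0% of its width inside the gene. A further peak between 2134 and 2871 bp was called in HFD-LSK replicate 3 and LFD-LSK replicates 1, 2 and 4, while the peaks of HFD-LSK replicate 2 and LFD-LSK replicate 3 ran on to 2911 and 2641 bp. In LFD-LSK replicate 4 the region was broken into 4 peaks, the widest 503 bp. Its fold rank stayed at 40.0% or lower down the list, with a median of 66.0%.

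Socs3 (chromosome 11, 117966079 to 117970336, minus strand), the inhibitor of gp130 and G-CSF receptor signaling, had widths of 809, 1515 and 766 bp in HFD-LSK and 851, 780, 1096 and 612 bp in LFD-LSK. Its summits fell at 2 places. They lay 731 to 851 bp inside the gene in all 3 HFD-LSK lists and in LFD-LSK replicate 4, and between -67 and 207 bp in LFD-LSK replicates 1, 2 and 3. In LFD-LSK replicate 4 both places had a peak of their own, with 18 and 19 summit fragments, so the choice between them rested on 1 fragment. Fold rank was 79.7%, 38.1% and 38.7% in HFD-LSK and 98.4%, 60.1%, 77.7% and 54.7% in LFD-LSK.

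Cish (chromosome 9, 107296659 to 107302784, plus strand) encodes CIS, a STAT5-induced inhibitor of erythropoietin and interleukin signaling. Widths were 841, 1161 and 1325 bp in HFD-LSK and 888 and 805 bp in LFD-LSK replicates 1 and 3, a 1.65-fold range. The peaks surrounded the start, which carries the GAS matches, with summits between -95 and 187 bp. The fold rank ran from 30.3% in HFD-LSK replicate 3 to 76.7% in HFD-LSK replicate 1. The call in HFD-LSK replicate 3 rested on 10 fragments at the summit. For Cish in HFD-LSK replicates 1 and 2, Jak3 in LFD-LSK replicate 2 and Socs2 in LFD-LSK replicate 3, 2 fragment numbers solved the equations and the better fit was kept.

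**Figure D3:**
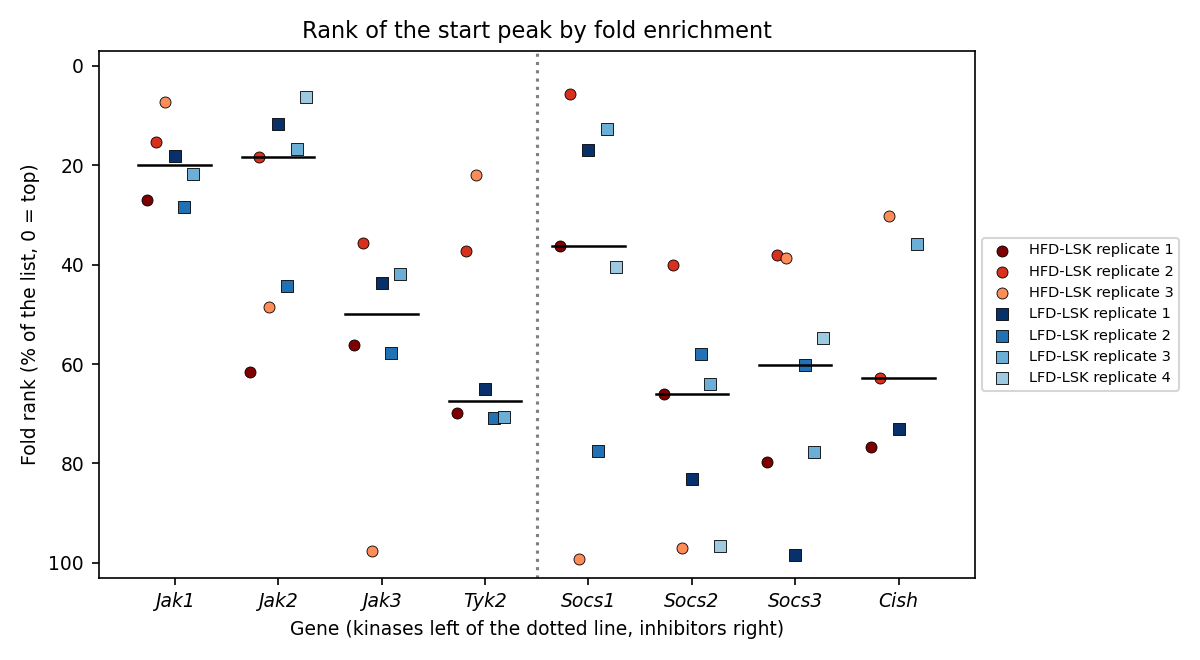
Fold rank of the start peak, as a percent of the list counted from the top (axis reversed, 0 at the top), per gene and library. Circles are HFD-LSK, squares LFD-LSK, and lines are medians. Jak1 stays between 7.22% and 28.5%, while Socs1 spans 5.69% to 99.3%.

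In order of mean width the genes ran Socs1 (1640 bp), Socs2 (1514 ± 914 bp), Jak2 (1510 ± 738 bp), Jak3 (1095 ± 625 bp), Cish (1004 ± 228 bp), Jak1 (988 ± 153 bp), Socs3 (918 ± 300 bp) and Tyk2. Over the 4539 starts called in all lists, the median of the mean width was 1120 bp. No neighbours in this order differed by more than the SD of their paired difference over lists. Some stood the other way in most shared lists: Socs1 was wider than Socs2 in only 3 of 7, and Cish wider than Jak1 in 2 of 5. The difference was nearest to its SD for Socs3 over Tyk2, at 297 ± 308 bp over 6 lists. Some genes that are not neighbours kept their order in every list: Socs1 was wider than Socs3 in 7 of 7 lists, than Jak1 and Tyk2 in 6 of 6 and than Cish in 5 of 5, and Jak2 was wider than Jak1 and Tyk2 in 6 of 6.

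By median fold rank the order was Jak2 (18.4%), Jak1 (20.0%), Socs1 (36.2%), Jak3 (50.0%), Socs3 (60.1%), Cish (62.8%), Socs2 (66.0%) and Tyk2 (67.4%). Here too neighbours differed by less than the SD of their difference. Each median covers only the lists that called the gene, and some neighbours stood the other way in most shared lists. Jak1 ranked above Jak2 in 4 of 6 shared lists, and Socs3 ranked above Cish in only 1 of 5. The median of the mean rank over the 4539 starts was 34.0%. Jak1 ranked above Jak3, Tyk2, Socs2 and Socs3 in 6 of 6 lists and above Cish in 5 of 5. Ordered by summit fragments instead, Jak2 ranked above Jak1, Jak3 and Tyk2 in 6 of 6 lists and above Socs2 and Socs3 in 7 of 7, and Socs1 ranked above Jak1, Jak3 and Tyk2 in 6 of 6.

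**Figure D4:**
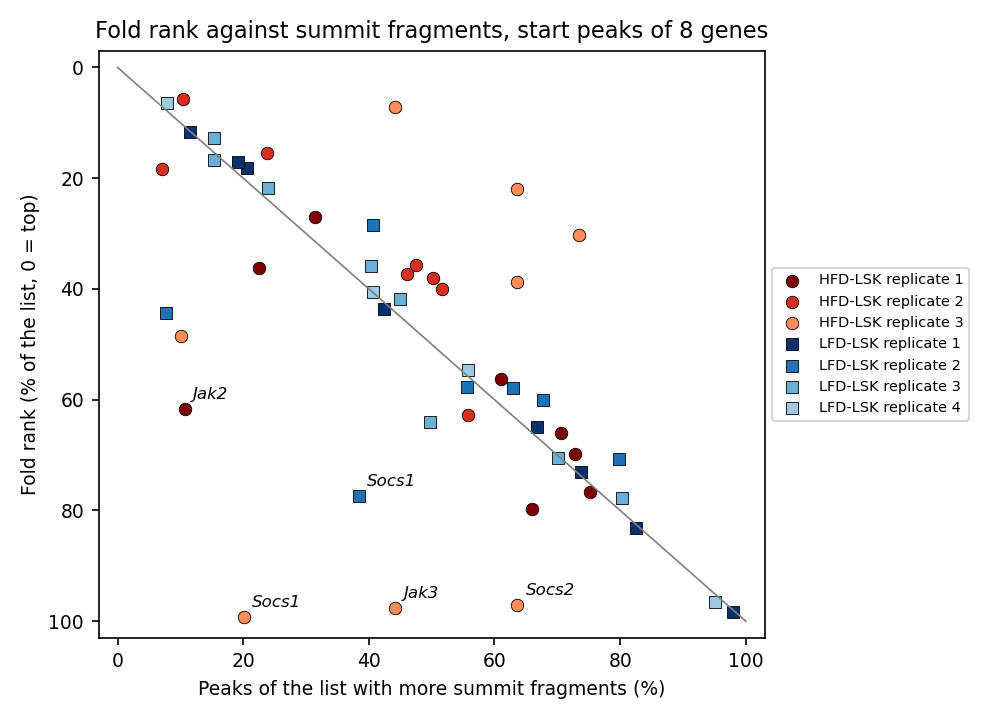
Fold rank of each start peak (percent of the list, 0 at the top) against the percent of peaks in the same list with more summit fragments, for the 8 genes in 7 libraries. The grey line marks equal percents, and peaks below it ranked lower by fold than by fragments. The labelled points are Socs1, Jak3 and Socs2 in HFD-LSK replicate 3, Socs1 in LFD-LSK replicate 2 and Jak2 in HFD-LSK replicate 1.

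Background and fragments are solved from fold and p together, so a peak well below that line has a high background by construction. Jak3 in HFD-LSK replicate 3 ranked at 97.7% by fold with a background of 3.29 fragments, although 44.2% of peaks had more summit fragments. Socs2 in the same list ranked at 97.1% with a background of 2.19 fragments. The same library also held peaks far above the line. Cish there ranked at 30.3% by fold on a background of 0.116 fragments, while 73.5% of peaks had more than its 10 fragments. A low fold rank also occurred without a high background, as for Socs3 in LFD-LSK replicate 1 (98.4%, 0.214 fragments) and Socs2 in LFD-LSK replicate 4 (96.5%, 0.0891 fragments). The part of background in the differences between libraries was not tested.

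Among called genes, the kinases stood nearer the top of the list than the inhibitors, and the inhibitors were broader in most lists. In replicate order, the called kinases had a median fold rank of 59.0%, 27.1% and 35.3% in the HFD-LSK lists and of 30.9%, 51.0%, 31.9% and 6.36% in the LFD-LSK lists. For the inhibitors it was 71.4%, 39.0% and 67.9% in HFD-LSK and 78.1%, 60.1%, 49.9% and 54.7% in LFD-LSK. The kinases' median was thus nearer the top in 7 of 7 lists, with a mean difference (kinases minus inhibitors) of -2330 ± 1226 places (SD, n = 7 lists). The value for LFD-LSK replicate 4 rests on Jak2 alone, the only kinase called there, and uncalled genes were given no rank. Placed below the last peak of that list, Jak1, Jak3, Tyk2 and Cish would reverse its direction. Without that list the mean difference was -2161 places. Ranking by summit fragments, an order chosen after seeing the data, gave the same direction in 7 of 7 lists, with a difference of -2306 ± 897 places. Median rank over all called coding starts was 39.6% to 44.7% in these lists.

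In the HFD-LSK lists the median width was 961.5, 1567 and 1070 bp for the kinases and 1113.5, 1963.5 and 1443 bp for the inhibitors. In the LFD-LSK lists it was 619.5, 987.5, 827.5 and 1121 bp for the kinases and 958, 842, 1429 and 612 bp for the inhibitors. The inhibitors were broader in 5 of 7 lists, and the exceptions were LFD-LSK replicate 2, where Cish was not called, and LFD-LSK replicate 4, where Jak2 stood alone for the kinases. The mean difference (kinases minus inhibitors) was -172 ± 380 bp (SD, n = 7 lists), smaller than its spread between lists. It was -286 bp without LFD-LSK replicate 4, -101 bp without LFD-LSK replicate 3 and -101 bp with a 500 bp window. Over the 95 pairs of a kinase and an inhibitor called in the same list, the inhibitor was the wider in 60 (63.2%) and ranked nearer the top in 25 (26.3%). Members of a class share their libraries, so these pairs are not independent, and neither class was uniform. By fold, Tyk2 ranked above Socs3 in 5 of 6 shared lists, above Cish in 4 of 5, above Socs2 in 3 of 6 and above Socs1 in 2 of 6, and Socs1 ranked above Jak3 in 4 of 6.

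**Figure D5:**
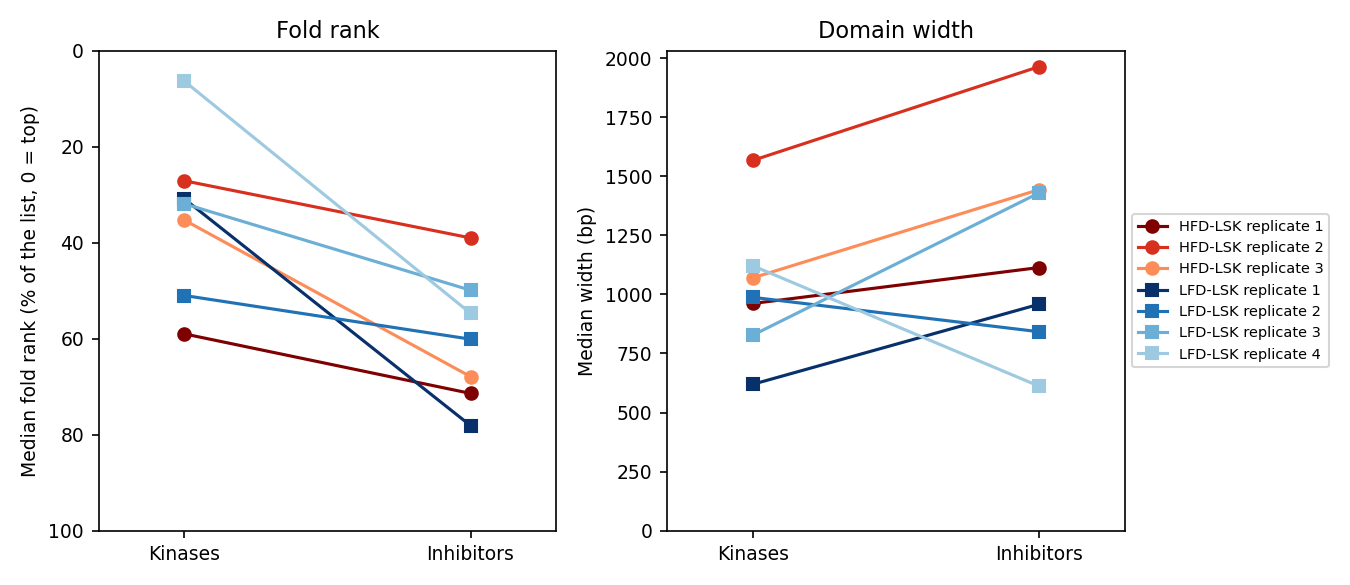
Median fold rank (left, percent of the list, 0 at the top) and median width (right, bp) of the called kinases and inhibitors, 1 line per library, circles for HFD-LSK and squares for LFD-LSK. All 7 lines run downward on the left, and 5 of 7 run upward on the right.

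No difference between the diets passed the test at these starts. The 4 genes called in all 7 lists entered a two-sided exact permutation test of diet labels among the 7 libraries (35 arrangements), which cannot give a p below 0.0286. Jak2 was placed 2696 ranks farther from the top in HFD-LSK (mean rank 4631 ± 1922, SD, n = 3) than in LFD-LSK (1935 ± 1917, n = 4; exact permutation p = 0.143). Ordered by summit fragments, that difference was 86.6 ranks (exact permutation p = 0.771). Socs1 differed by 1925 ranks (exact permutation p = 0.600) and Socs2 by 1238 (exact permutation p = 0.743), both farther from the top in HFD-LSK, and Socs3 by -733 (exact permutation p = 0.571). Without HFD-LSK replicate 3, in which Socs1 and Socs2 ranked at 99.3% and 97.1%, the differences of Socs1 and Socs2 were -1360 and -757 ranks. Over all 4539 starts, 0.286% were called nearer the top and 3.57% farther from the top in HFD-LSK at p under 0.05, with a median difference of 698 ranks, and the HFD-LSK lists were on average longer. After Benjamini-Hochberg adjustment over all starts no difference passed 0.05, and the adjusted p of the 4 genes was 0.818 or higher.

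Widths were larger in HFD-LSK for all 4 tested genes, as for most starts. Means were 1868 ± 1055 bp against 1241 ± 352 bp for Jak2, a difference of 626 bp (exact permutation p = 0.286). Socs2 measured 2087 ± 914 bp against 1084 ± 733 bp, a difference of 1003 bp (exact permutation p = 0.171). Socs1 differed by 256 bp (exact permutation p = 0.543) and Socs3 by 195 bp (exact permutation p = 0.514). None passed the test, and the diets overlapped in each gene. Among all 4539 starts, 92.9% were wider in HFD-LSK by mean, with a median of 281 bp, and 3.77% passed as wider and 0% as narrower at p under 0.05. With width as a percentile of the list, these 171 wider and 0 narrower starts became 34 and 54. The widest domain of each of the 4 genes was in HFD-LSK replicate 2, and without that library the difference was 21.8 bp for Jak2, 479 bp for Socs2, -57.2 bp for Socs1 and -47.2 bp for Socs3. As a percentile among the peaks of its own list, the width difference was 4.47 points for Jak2, 32.5 for Socs2, -0.495 for Socs1 and -2.79 for Socs3, and none passed the test.

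The 4 genes not called in every list were left out of the test, since no p below 0.1 is possible with their called lists alone. Their mean width over called lists was larger in HFD-LSK by 132 bp for Jak1, 897 bp for Jak3, 84.3 bp for Tyk2 and 262.5 bp for Cish. The diets overlapped in all 4 of them, for Jak3 by the 9 bp given above, and for Cish because the narrowest HFD-LSK width, 841 bp, lay below the 888 bp of LFD-LSK replicate 1.

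The other genes of the pathway were followed as lists, whose counts stand beside the 21.2% of all coding starts called in all 7 lists. Of the 4 remaining SOCS genes, which are thought to be less tied to cytokine induction, Socs4, Socs5 and Socs6 were called in all 7 lists and Socs7 in 6, with mean ranks of 18.5% to 34.3% and mean widths from 1075 bp (Socs6) to 1628 bp (Socs7). These ranks lie nearer the top than the mean ranks of the 3 inhibitors called in all lists, which had a median of 63.9%. Those 3 were not alike: Socs3 stood at 63.9% and Socs2 at 72.1%, but Socs1 at 41.3%, near the 34.3% of Socs5. Of 7 STAT factors, 2 were called in all lists, among them Stat3 (935 bp), 4 in some, and Stat4 in none. The ubiquitin ligase partners numbered 4, with Cul5 (826 bp) and Eloc (1191 bp) called in all lists. Other brakes on the pathway, phosphatases, PIAS proteins and adaptors, were called in all lists for 4 of 12, from Usp18 (810 bp) to Ptpn1 (1174 bp).

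Receptors that use Janus kinases were called in all lists for 4 of 15, from Ifngr1 (921 bp) to Il6st, which encodes gp130 (1216 bp). Of 10 STAT target genes, 2 were called in all lists, Mcl1 (1538 bp) and Pim1 (2736 bp), and Pim1, a survival kinase, had a mean rank of 8.62%. In the diet test of rank, 3 genes of these lists passed at the smallest p the design allows (exact permutation p = 0.0286), all farther from the top in HFD-LSK: Pias1 by 2206, Ifnar2 by 1417 and Ifngr1 by 4672 ranks. Their number over the 17 genes called in all lists stands beside the 3.57% of all starts that passed in that direction. That share depends on the ranking: the 162 starts behind it became 62 with rank as a percent of the list, and the 13 nearer the top became 48. No gene of these lists passed nearer the top, wider or narrower.

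The coding starts whose rank and width percentiles followed each gene most closely over the 7 lists were Nr3c2 for Jak2, Poc1b for Socs1, Map4k4 for Socs2 and Ltbr for Socs3. The mean absolute difference was 9.16, 9.85, 10.5 and 10.4 percentile points, against medians of 23.5, 27.2, 34.8 and 30.0 points over the 4538 other starts. Each start was picked as the closest of those 4538, so a difference below the median was fixed by the choice and is no evidence of a link.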

How the data were processed

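H3K4me3 libraries of LSK cells were grouped by the diet and replicate number in their labels, and 1 MACS2 narrow-peak list per library was analyzed. The labels name the assay CUT&RUN, and the paper names it CUT&Tag. The labels list Trim Galore, Bowtie2, Picard, MACS2, bedtools, HOMER and featureCounts, without versions, and GRCm38. The paper's methods name SEACR peaks on GRCm39 instead, so the settings behind the deposited lists are not given in the sources used here. Merged over the 7 lists, the deposited peaks made 14659 regions, the same number as the consensus peaks that the paper reports for its 7 samples. The coordinates were read as GRCm38, in which 74.8% to 87.7% of each list's peaks lay within 1 kb of a coding start. The authors deposited for each peak a fold, −log10 values of p and of q, a score, and other columns for its ends and summit. Fold is the ratio of the summit to the background that MACS2 used. The paper sets its peaks against matched IgG controls, but whether these lists did so is not given. The lowest −log10 p was 5.01 to 5.08 in each list, so calls were limited by p. Fold depends on the depth and background behind each list and was compared only as a rank within a list.

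Starts were the first RefSeq start (GRCm38.p6, 17492 genes) or the outer gene bound with the GENCODE strand of the same symbol (3949 genes, Socs2 among them). Together they cover 98.0% of coding genes. Where several peaks fell in the window, the highest fold and the widest peak were taken. Summit fragments are an inferred value: fold was solved as (height + 1) over (background + 1) and p as a Poisson probability, with 1 scale per library, to within 0.01 fragment. A number was found for 100% of peaks, and a single number for 94.3% to 99.5%. They cover counting error only, and fragments without molecular identifiers need not be independent molecules. No other coding start lay within 1 kb of the 8 starts. The first start was used also where, as for Socs3, the gene's outer bound lies farther upstream.

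Group means of rank and width were compared over all starts called in the 7 lists by exact permutation of the diet labels (35 arrangements, two-sided), and calls by Fisher's exact test, with Benjamini-Hochberg adjustment over all starts. Kinases and inhibitors were compared per list by their medians, with no test. The members and gene lists were chosen with earlier results of these data known. Named genes were the 8 members, for each member called in all lists the 1 coding start nearest to it in rank and width percentile, and from each pathway list the lowest and the highest by mean width. Socs7, Stat4 and the 3 pathway genes that passed the diet test were named after their values were seen, as was Ly6a. Some genes of these lists are not reported here. Libraries of 1 replicate number could be pairs. The paper states that its differential analysis allowed for batch and pairing, and that diets were compared within a cohort, but the labels name no pairs. Deviations of equal numbers from the group means correlated by 0.017 to 0.18 in rank and 0.011 to 0.11 in log2 width. Libraries of unequal number were not correlated, so these values cannot show whether pairs exist. The main test did not take the numbers as pairs, and the replicate block did. Recovery and tests were tested on simulated data. Python 3.11.15, numpy 2.4.6, pandas 2.3.3, scipy 1.17.1 and matplotlib 3.10.9 were used. Alternatives were other windows (500 bp and 3 kb), a −log10 q of at least 5, equal list lengths, other ranks and widths, a replicate block, and leaving out each library.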

Additional observations from a re-analysis of the deposited data

Results flagged for a closer look

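The width of Jak2 in the 4 LFD-LSK lists stood out because of 1 library. LFD-LSK replicate 2 measured 1763 bp against 989, 1092 and 1121 bp, and its gap to the nearest of these was 0.829 of the whole range, a ratio just past Dixon's 95% critical value, which is also 0.829 at 3 digits. The background solved for this peak in the same list was 3.20 fragments. Of 8 such ratios computed, for width and rank of the 4 genes called in all lists, this was the 1 past its limit, and chance alone passes about 1 in 20.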

How the results depend on the processing

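The count of 4 genes called in all lists was 3 with a 500 bp window and 4 with 3 kb. It was 1 with a −log10 q of at least 5, 1 with equal list lengths, and 4 to 7 when a library was left out, with 7 without LFD-LSK replicate 4. The mean rank difference of the called kinases from the called inhibitors (-2330) kept its direction under all alternatives. It ran from -2430 by −log10 p to -1798 with a −log10 q of at least 5. With a library left out it was -2558 to -2067. No alternative gave uncalled genes a rank in this comparison. The width difference between the classes (-172 bp) also kept its direction. It ran from -195 bp with total width to -101 bp, and from -286 to -101 bp with a library left out. No member passed the diet test of rank or width under any alternative, though leaving out a library allows no p below 0.0667, so those fits give only a direction. In the diet comparison of rank over all starts, the 13 nearer and 162 farther from the top in HFD-LSK became 48 and 62 as percent of the list, 41 and 74 among starts called in all lists, 81 and 205 (of 11347 starts instead of 4539) with missing calls given a rank, 3 and 106 (of 2654) with a −log10 q of at least 5, and 23 and 98 by summit fragments, an alternative chosen after seeing the data. Width as percentile turned 171 wider and 0 narrower into 34 and 54. The cause of these shifts was not tested. Directions that reversed were the rank difference of Socs3 by −log10 p (498) and by fragments (113), of Socs2 as percent (-7.69) and among common starts (-184), and of Socs1 by fragments (-543). Without HFD-LSK replicate 3 the rank difference of Socs1 and Socs2 reversed (-1360 and -757), and leaving out other libraries gave values up to 4212 and 2443.5. Widths as percentile reversed for Socs1 (-0.495) and Socs3 (-2.79), and without HFD-LSK replicate 2 they did so as well (-57.2 and -47.2 bp), with values up to 456 and 327 bp when other libraries were left out. With the replicate block, pairing libraries of equal number, 0 of 4 genes passed for rank and 0 of 4 for width. The rank differences with the replicate block were 2197 for Jak2, 1728 for Socs1, 1329 for Socs2 and -1597 for Socs3, and 3 pairs allow no p below 0.25. Given a rank where uncalled, Jak1, Jak3, Tyk2 and Cish differed by -2561, 1061.5, -2962 and -1840 ranks (exact permutation p of 0.457, 0.600, 0.171 and 0.486). Calls at the fewest fragments limit what the shallower lists can show.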
